A study of Emberiza melanocephala with 12 samples.

Results

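REST, the RE1-silencing transcription factor, and RCOR1, its corepressor CoREST, are 2 of the 18284 genes with FPKM values (an expression level adjusted for transcript length and for the size of the library) in liver of the blackheaded bunting, and both were among the 9566 genes compared between seasonal states. They were picked because both were among the genes that differed between the states in these libraries. Their difference between the states is therefore given as a description without a test. Their change with time of day and their covariation within a state were not used to pick them. The choice was nevertheless made with earlier results of these data known. The symbols belong to the zebra finch gene models ENSTGUG00000004749 (REST) and ENSTGUG00000012820 (RCOR1).

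Liver RNA came from adult male buntings held on long days of 16 h light and 8 h dark. In the photostimulated migratory (M) state, birds kept sensitive to light by short days had been moved to long days and showed night-time migratory restlessness. In the photorefractory non-migratory (nM) state, birds had stayed on long days until they no longer responded to them. Each state had 6 libraries, 1 from a single bird at each of ZT1, ZT5, ZT9, ZT13, ZT17 and ZT21 (hours after lights on), so the 6 libraries of a state stood for different birds as well as different times. Both states shared the long day, and they differed in light history together with physiology, which cannot be told apart.

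REST is a zinc finger protein that binds RE1 elements, DNA sites found near many neuronal genes, and keeps those genes silent in cells outside the nervous system. One end of the protein recruits the SIN3 corepressor, and the other recruits RCOR1, a scaffold that holds the histone demethylase KDM1A and the deacetylases HDAC1 and HDAC2 together. RCOR1 also serves other zinc finger repressors, so the corepressor is not bound to REST alone. These roles come mainly from work in human and mouse cells.

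REST was lower in the M state at every time of day. Its FPKM in M livers was 6.54 at ZT1, 1.07 at ZT5, 5.62 at ZT9, 2.65 at ZT13, 4.71 at ZT17 and 2.22 at ZT21, against 46.4, 12.97, 22.3, 16.1, 26.3 and 23.4 in nM livers at the same times. The 2 states did not overlap: the lowest nM library, of ZT5, was 1.98 times the highest M library, of ZT1. REST averaged 3.80 ± 2.14 FPKM in M livers and 24.6 ± 11.8 FPKM in nM livers (SD, n = 6 each). On the scale of log2(FPKM + 1) the state difference, M minus nM, was -2.44 with a standard error of 0.36. From low to high, the M libraries ran in the order ZT5, ZT21, ZT13, ZT17, ZT9 and ZT1, and the nM libraries followed in the order ZT5, ZT13, ZT9, ZT21, ZT17 and ZT1. With 1 library behind each level, neighbours in this order cannot be told apart.

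RCOR1 showed the same split between the states. In M livers its FPKM was 7.51 at ZT1, 1.24 at ZT5, 5.04 at ZT9, 1.75 at ZT13, 0 at ZT17 and 3.81 at ZT21, against 27.9, 10.5, 16.8, 15.4, 16.4 and 16.4 in nM livers. Again no M library reached an nM library, the lowest nM level being 1.39 times the highest M level. The median was 2.78 FPKM in M livers and 16.4 FPKM in nM livers. The difference on the log2(FPKM + 1) scale was -2.37 with a standard error of 0.45. Because 1 is added before the logarithm, this scale understates the change of genes at a few FPKM: the ratio nM over M at a given time ran from 3.96 to 12.1 for REST over 6 times, and from 3.33 to 8.81 for RCOR1 over the 5 times at which its M value was above 0.

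**Figure D1:**
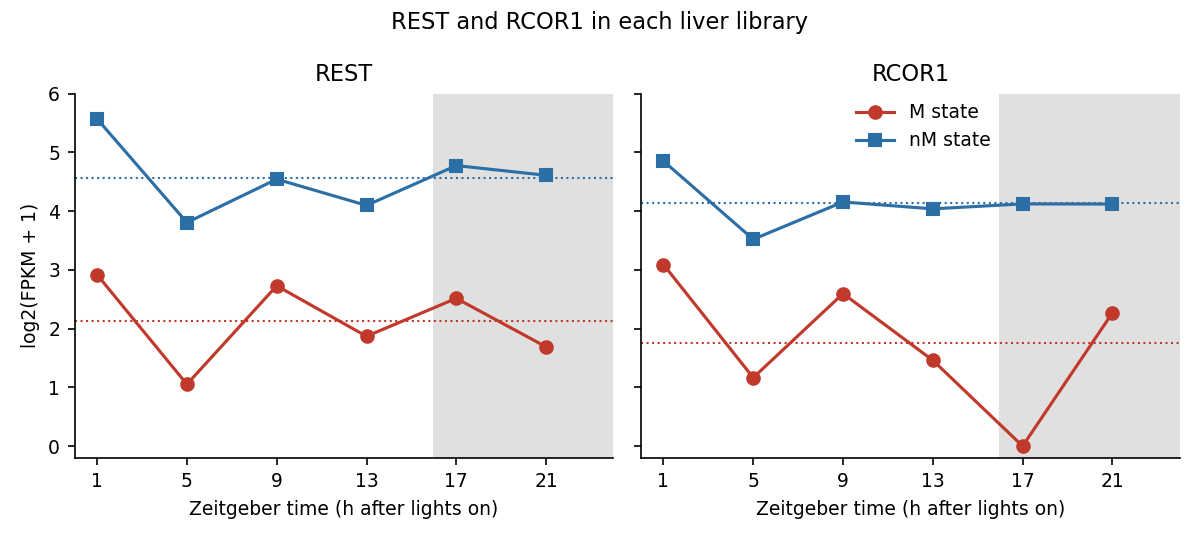
REST (left panel) and RCOR1 (right panel) in each of the 12 liver libraries, as log2(FPKM + 1) against zeitgeber time in hours, with M in red circles, nM in blue squares, state means dotted and the dark hours shaded. All 6 M points lie below all 6 nM points for both genes, and both genes are highest at ZT1 and, apart from the RCOR1 value of 0 at ZT17 in M, lowest at ZT5 in both states.

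Across all 9566 genes, 892 (9.32%) passed limma's test (false discovery rate under 0.1, log2 fold change beyond 0.1 in either direction), of which 272 (2.84%) were higher and 620 (6.48%) lower in M. With every library scaled to the same FPKM total, the split turned to 181 higher and 114 lower, whereas the differences of REST (-2.51) and RCOR1 (-2.23) moved little. In 325 genes (3.4%) every M library lay below every nM library, and in 75 (0.784%) above. Ordered by decrease in M, REST stood at place 17 and RCOR1 at place 20. The median difference of all genes was -0.08. In bulk liver, fewer cells that express a gene and less RNA per cell cannot be told apart.

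Within a library, both genes stood in the lower part of the transcriptome in M and around or above its middle in nM. REST ranked above 12.1% to 40.8% of the genes compared in M libraries (median 27.3%), against 53.9% to 75.8% in nM libraries (median 64.7%). The rank of RCOR1 was at 3.38% to 41.2% in M libraries (median 21.7%), against 49.2% to 65.9% in nM libraries (median 56.8%). Its 3.38%, at ZT17, is the mean rank shared by the genes listed at 0, so RCOR1 stood above no gene there. These ranks do not depend on how libraries are scaled to each other, and they do not overlap between the states either.

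The FPKM of the 2 genes were also compared within a library, since FPKM is per length. Bunting reads were mapped onto zebra finch gene models, and how fully each gene was captured was not tested. A ratio above or below 1 therefore need not give the order of the 2 transcripts, and protein was not measured. The ratio of REST to RCOR1 in M livers was 0.871 at ZT1, 0.865 at ZT5, 1.12 at ZT9, 1.51 at ZT13 and 0.583 at ZT21, with no ratio at ZT17. In nM livers it was 1.67, 1.24, 1.33, 1.04, 1.61 and 1.43 at the 6 times in order. The FPKM of REST thus exceeded that of RCOR1 in 2 of the 5 M libraries with a ratio, and in 6 of 6 nM libraries. The ranges overlapped between the states, with medians of 0.871 in M and 1.38 in nM.

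The library behind the single RCOR1 value of 0 stood apart from the others. In the M library of ZT17 the sum of all FPKM values was 3.51 times the median sum of the other 11, which lay between 0.764 and 1.40 times that median, and 1741 genes were listed at 0, against 378 to 1267. The median of its rank correlations to the rest was 0.703, against 0.895 to 0.933. In it alone, 509 of the genes compared were listed at 0, and 48 of these had a median over the other libraries at least as high as the 10.5 FPKM of RCOR1. A listed 0 can be a failed estimate: ALB, the albumin gene of hepatocytes, was listed at 0 in 3 M libraries and 1 nM library and was at 17300 FPKM or more in the other 8. Without this library the RCOR1 difference was -2.02 and the REST difference -2.51.

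Of 10 hepatocyte markers 4 had a symbol. Apart from ALB these were FGB, AHSG and F2, which encode plasma proteins made by hepatocytes, were at 1394 FPKM or more in every library, as the tissue label implies. KRT7, a marker of bile duct cells, was at 13.6 to 45.8 FPKM in M and 8.08 to 36.7 FPKM in nM. The summed FPKM of the 2 named macrophage markers (of 5 listed) was 34.1 to 79.9 in M and 16.1 to 75.1 in nM. The 3 named endothelial markers (of 6) summed to 12.7 to 22.5 in M and 22.1 to 29.1 in nM, and the 3 named stellate cell markers (of 6) to 28.5 to 289 in M and 215 to 404 in nM. PTPRC, a leukocyte surface phosphatase and the only named lymphocyte-list gene of 5, was at 0.708 to 14.6 FPKM in M and 7.16 to 30.6 in nM. ELAVL4, the only named neural marker of 6, was 0 in all M libraries and 0 to 0.415 FPKM in nM. The median was lower in M for the stellate sum (189 in M and 319 in nM), the endothelial sum (17.05 in M and 23.4 in nM) and PTPRC (12.9 in M and 16.3 in nM), as it was for REST and RCOR1. Most of the stellate sum was DCN, with medians of 180 FPKM in M and 307 in nM. COL3A1 had medians of 8.99 in M and 9.37 in nM. PDGFRB, itself picked on this contrast, had 1.86 in M and 4.96 in nM. The median was higher in M for the macrophage sum (55.5 in M and 22.8 in nM) and KRT7 (31.2 in M and 17.1 in nM). Hepatocyte markers did not go 1 way. Their sum had medians of 20117 in M and 41587 in nM, but it holds ALB with its listed values of 0. AHSG was lower in M (4574 in M and 5977 in nM). FGB (3185 in M and 2770 in nM) and F2 (2490 in M and 1683 in nM), the latter picked on this contrast, were higher. The part of these cell types in the difference of REST and RCOR1 was not tested.

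Neither gene followed a 24-h rhythm that passed the test. Fitted by limma to both states together, the cosine of REST had an amplitude of 0.25 on the log2 scale and a peak at ZT21.2 (adjusted p = 0.901), an amplitude larger than that of 36.1% of genes. RCOR1 had an amplitude of 0.44 and a peak at ZT2.2 (limma, adjusted p = 0.824), larger than 70.6% of genes. Among all genes 5 (0.0523%) passed. The rhythm of neither gene was found to differ between the states (limma, adjusted p = 0.942 for REST and 0.882 for RCOR1), and no gene passed that test (0%), with 266 at an unadjusted p under 0.05 in limma and 287, again none after adjustment, by ordinary regression. With 1 bird per state and time, these values do not show that a rhythm was absent.

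The order of the libraries by FPKM was shared in part by the 2 genes and the 2 states. For both genes and in both states ZT1 gave the highest library and ZT5 the lowest, leaving aside the value of 0 for RCOR1 in M. By the read totals listed with the study, ZT5 was also the most deeply sequenced library of each state. Time of day, bird and sequencing depth therefore cannot be told apart at ZT5. The nM library of ZT5 was also the lowest nM library for partner genes described below, such as HDAC2, RCOR3, KDM1B, ARID4B and SAP18. For others, such as SIN3A, CTBP1 and SMARCE1, it was not. How many of all genes had these extremes was not counted. REST in the dark libraries of ZT17 and ZT21 lay within the range of the light libraries. It was 2.22 to 4.71 FPKM in the dark and 1.07 to 6.54 FPKM in the light in M livers, and 23.4 to 26.3 FPKM in the dark and 12.97 to 46.4 FPKM in the light in nM livers. RCOR1 was at 0 and 3.81 FPKM in the dark and 1.24 to 7.51 FPKM in the light in M livers, and at 16.4 FPKM at both dark times and 10.5 to 27.9 FPKM in the light in nM livers. The SD over the 6 libraries on the log2 scale was 0.71 in M and 0.61 in nM for REST, and 1.12 in M and 0.42 in nM for RCOR1.

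Within the M state the 2 genes were not found to vary together over all 6 libraries. Pearson's r was 0.34 (n = 6, two-sided exact permutation p = 0.499, adjusted 0.499 over 4 coefficients) and Spearman's rho was 0.60 (exact permutation p = 0.242, adjusted 0.322). Without the 2 libraries farthest from the median of REST, ZT1 and ZT5, r was -0.16 (n = 4). The M library of ZT17, with RCOR1 at 0, decided this value: without it r was 0.89 (n = 5, exact permutation p = 0.0583) and rho 0.90 (p = 0.0833). Scaling all libraries to the same FPKM total gave r = 0.88 over the 6 libraries (exact permutation, adjusted p = 0.0444), whereas upper quartile scaling gave 0.63 (adjusted p = 0.233) and the linear scale 0.62 (adjusted p = 0.242). The value of 0.88 also rests on ZT17, whose FPKM total was 3.51 times the median of the other libraries. Equal totals lower its REST value and leave its RCOR1 at 0.

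Within the nM state the covariation of REST and RCOR1 passed the test by Pearson's r, while the test by rank did not pass. Pearson's r was 0.95 (n = 6, two-sided exact permutation p = 0.00694, adjusted 0.0278 over the same 4 coefficients, the smallest possible p being 0.00139), while Spearman's rho was 0.83 and did not pass (exact permutation p = 0.0583, adjusted 0.117). Without ZT1 and ZT5, the extremes of REST, r was 0.82 (n = 4). The Pearson call was lost, at an r of 0.85 to 0.99 and an adjusted p of up to 0.233, when ZT1, ZT5, ZT13, ZT17 or ZT21 was left out. It stayed without ZT9 (r = 0.95, exact permutation, adjusted p = 0.0333). Since 5 libraries allow only 120 pairings, few outcomes can pass, and a lost call need not mean a lower r. With upper quartile scaling of all 6 libraries the call was also lost (r = 0.91, exact permutation, adjusted p = 0.1). The difference between the M and nM coefficients was not tested.

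**Figure D2:**
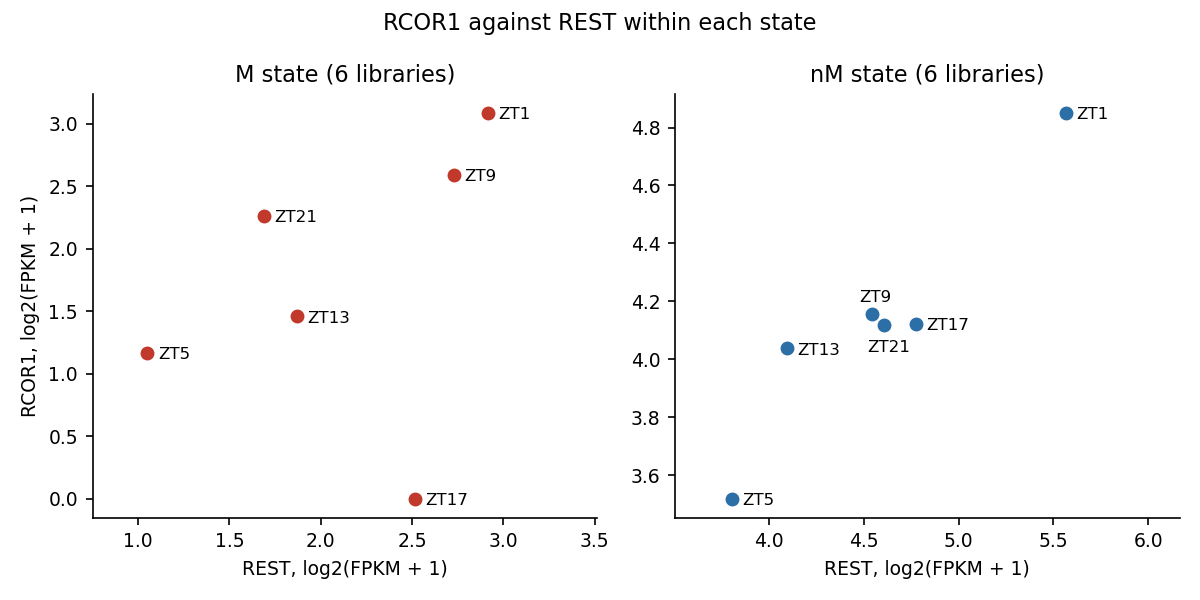
RCOR1 against REST, both as log2(FPKM + 1), in the 6 M libraries (left) and the 6 nM libraries (right), each point labelled by zeitgeber time. In M the ZT17 library, with RCOR1 at 0, lies off the line of the other 5 (r = 0.34 with it and 0.89 without it), and the nM points follow a line (r = 0.95).

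An r above 0.9 to REST was found for 0.209% of genes in M and 4.22% in nM. To RCOR1 it was found for 7.74% in M and 2.89% in nM. Each coefficient of the pair was therefore set beside those of all other genes. In M, 1471 of 9565 genes (15.4%) had an r to REST at least as high as that of RCOR1, and the median gene had an r of 0.01. Without ZT17, 464 genes (4.85%) did. In nM, 110 genes (1.15%) did, with a median of 0.25. Seen from RCOR1, an r at least as high as that of REST was found for 4431 genes (46.3%) in M and 86 genes (0.899%) in nM. The M shares seen from RCOR1, 7.74% and 46.3%, include ZT17, where RCOR1 was listed at 0. They were not computed without that library. All genes of a library share its RNA preparation and its FPKM scale.

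**Figure D3:**
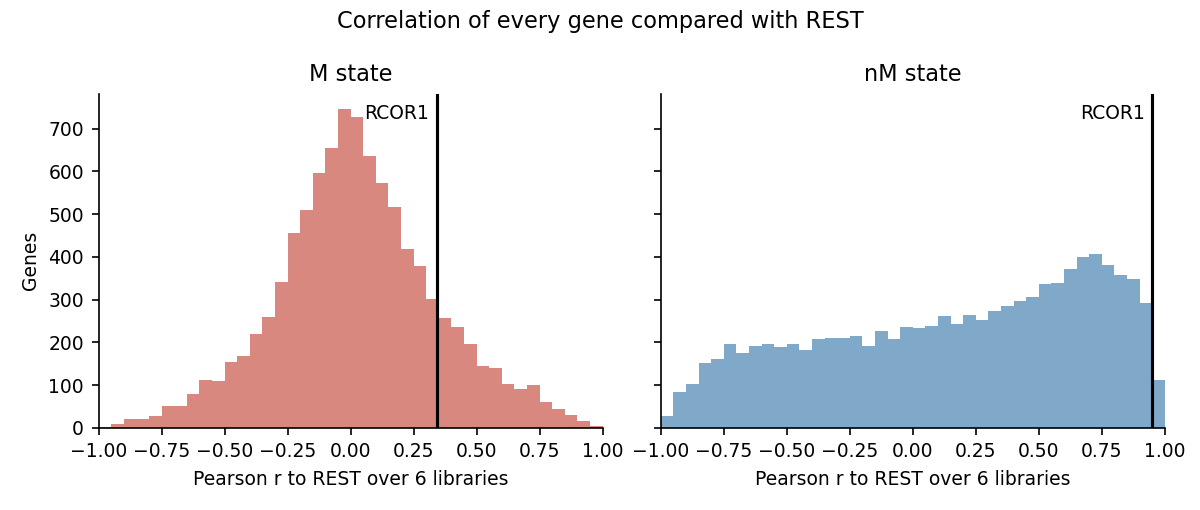
Histograms of Pearson's r between REST and each of the other 9565 genes over the 6 M libraries (left) and the 6 nM libraries (right), with RCOR1 marked by the black line. The marker stands at 0.34 in M, where 15.4% of genes were at or above it, and at 0.95 in nM, where 1.15% were.

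With the state means taken out, the 12 libraries could be used together to ask which genes varied most like each member. Over all 12, RCOR1 had an r of 0.46 to REST and stood at place 1105 of 9565. Without the M library of ZT17, an alternative chosen after seeing the data, r was 0.90 and RCOR1 stood at place 28, and seen from RCOR1 the gene REST moved to place 12, against place 3277 over all 12. The likeness of this pair thus rested on whether that library was used. These coefficients are descriptions and were not tested.

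The named genes most like REST over 12 libraries were LRP5, a coreceptor of WNT signals (r = 0.89), CD81, a tetraspanin (0.88), PHF21A, a histone-reading subunit of the CoREST complex (0.86), MAN1A1, a Golgi mannosidase (0.86), SENP1, a SUMO protease (0.84), MTUS1 (0.82), FZR1, an activator of the anaphase-promoting complex (0.81), and ZNF654 (0.81). Among them stood 14 genes without a symbol. At the other end, with 5 genes without a symbol among them, were LZTR1 (-0.86), RUVBL1, an ATPase of chromatin remodellers (-0.85), CTGF, a matricellular growth factor (-0.78), and MEP1B, a secreted or membrane metalloprotease (-0.78). LRP5 (0.94) remained among the 8 highest named genes, and LZTR1 (-0.91) and RUVBL1 (-0.86) among the 4 lowest named genes, without the M library of ZT17.

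The named genes most like RCOR1 over 12 libraries, with 6 genes without a symbol among them, were ADAM10, a membrane protease that sheds receptors (r = 0.96), WWC3 (0.94), EFHA1 (0.94), UBR1, a ubiquitin ligase (0.94), NIPBL-2 (0.93), LACTB (0.93), TRAK2, a mitochondrial transport adaptor (0.93), and GCC2, a Golgi protein (0.93). The named genes with the lowest values were SLC31A2, a copper transporter (-0.97), RNF215 (-0.90), TRIM3 (-0.90) and RILP (-0.90), with 15 genes without a symbol among them. Without the M library of ZT17, ADAM10 (0.94), EFHA1 (0.89) and WWC3 (0.88) remained among the 8 highest named genes, REST itself being one of these at 0.90, with 12 genes without a symbol among them, and SLC31A2 (-0.96) remained among the 4 lowest named genes. ADAM10 was then also among the 8 named genes most like REST (0.93).

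PHF21A, also called BHC80, was both on the list of partner genes and among the genes most like REST. Its FPKM in M livers was 18.9 at ZT1, 6.61 at ZT5, 13.3 at ZT9, 11.6 at ZT13, 9.43 at ZT17 and 11.1 at ZT21, against 29.5, 9.77, 13.3, 9.91, 12.4 and 15.4 in nM livers. The states overlapped broadly (log2 difference -0.28, standard error 0.30, limma adjusted p = 0.546). Like REST, it was highest at ZT1 and lowest at ZT5 in both states. Of the 20 partner genes compared it had the highest r to REST, so these extremes follow in part from how it was picked. Its likeness to REST put it at place 7 of all 9565 genes over 12 libraries, and at place 13 (r = 0.92) without the M library of ZT17.

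The CoREST complex and its homologs were followed through a list of 14 genes, of which 7 carried a symbol. The 6 that were not picked on this contrast all passed the filter and none was called higher or lower in M, at a median difference of -0.31. RCOR3, a paralog of RCOR1, was at 6.13 to 8.65 FPKM in M (median 6.89) and 4.90 to 14.7 FPKM in nM (median 11.3), a difference of -0.46 (standard error 0.25, limma adjusted p = 0.260). HDAC2, a deacetylase of the complex, was at 41.1 to 61.5 FPKM in M and 25.2 to 78.9 FPKM in nM (difference -0.14, adjusted p = 0.753 in limma). Also among them were ZMYM2, a zinc finger subunit (-0.86, limma adjusted p = 0.132), and CTBP1, a corepressor (-0.34, adjusted p = 0.638).

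The scaffold paralog with the higher FPKM was not the same in the 2 states. RCOR1 made up 46.5%, 16.2%, 45.1%, 20.9%, 0% and 34.7% of the summed FPKM of RCOR1 and RCOR3 in the M libraries of ZT1 to ZT21. In the nM libraries it made up 78.1%, 68.1%, 55.2%, 55.9%, 52.7% and 61.0%. RCOR3 thus had the higher FPKM in the 5 M livers in which RCOR1 was above 0, and RCOR1 in all 6 nM livers. How fully each gene was captured on zebra finch models was not tested, so which transcript was more abundant cannot be told. The 0% at ZT17 in M rests on the listed 0, which can be a failed estimate. This share does not depend on the scaling of libraries, but RCOR1 was picked on the state contrast, so it is a description.

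KDM1B, a homolog of the CoREST demethylase KDM1A, was the third gene of this group to split the states. Its FPKM in M livers was 5.12 at ZT1, 1.89 at ZT5, 3.52 at ZT9, 4.49 at ZT13, 0.745 at ZT17 and 3.29 at ZT21, against 17.8, 11.1, 14.0, 23.5, 31.1 and 18.1 in nM livers. No M library reached an nM library, and the log2 difference was -2.32 (standard error 0.33, limma adjusted p = 0.00719, and 0.00338 to 0.0432 over the alternatives). KDM1B carries its symbol from the same selection on these libraries as REST and RCOR1, so its direction is not independent evidence. Its pattern within the states was less like that of REST (r = 0.24 over 12 libraries and 0.52 over 11, places 3025 and 2008) than that of PHF21A was, a difference that was not tested. KDM1B is not known as a stable subunit of the CoREST complex.

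**Figure D4:**
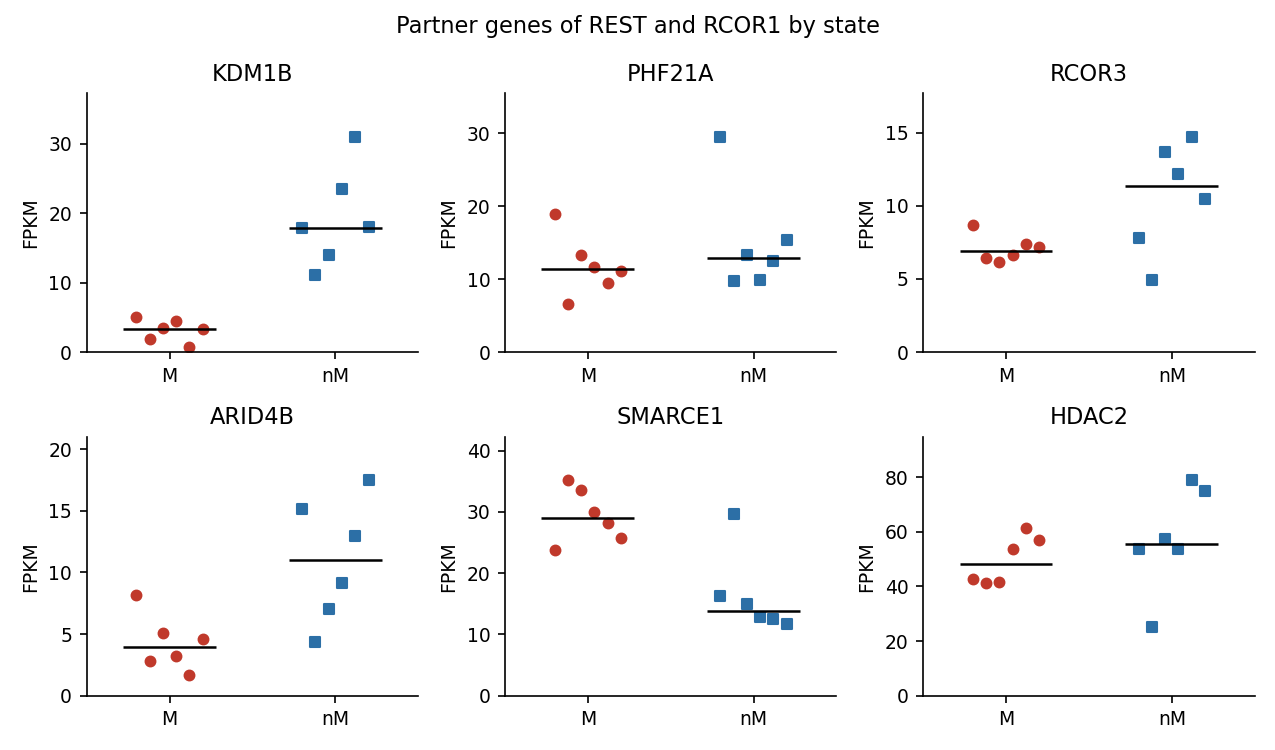
FPKM of KDM1B, PHF21A, RCOR3, ARID4B, SMARCE1 and HDAC2 in the 6 M (left, red circles) and 6 nM (right, blue squares) libraries of each panel, in order of zeitgeber time, with the median as a line. The states separate for KDM1B (0.745 to 5.12 in M, 11.1 to 31.1 in nM) and overlap for the other 5.

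Among all partner genes listed (56, including CoREST, SIN3 and other cofactors and regulators of REST protein stability), 22 had a symbol and 20 of these were not picked on this contrast. Of the 18 that passed the filter, none was higher in M, 1 was lower and 17 did not pass, against 8.76% called, 2.79% higher and 5.97% lower, among the 3872 genes with a symbol from the same table. A count of 1 in 18 is close to that background. Their median difference was -0.27, against -0.08 for those genes. The 1 call, ARID4B, a subunit of the SIN3 complex, was at 1.72 to 8.18 FPKM in M (median 3.91) and 4.32 to 17.5 FPKM in nM (median 11.03). The states overlapped, with a log2 difference of -1.17 (standard error 0.36, limma adjusted p = 0.0805). The call was lost in 12 of 22 alternatives, with adjusted p from 0.0331 to 0.239: with a pseudocount of 0.01, equal totals or ordinary regression, and without the M library of ZT5, ZT9, ZT13 or ZT21 or the nM library of ZT1, ZT9, ZT13, ZT17 or ZT21.

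The other SIN3 subunits, which join REST at its other end, did not pass. SAP18, the most abundant, was at 56.6 to 82.9 FPKM in M and 38.3 to 80.4 FPKM in nM (0.18, limma adjusted p = 0.605), and SIN3A, the scaffold, differed by 0.12 (adjusted p = 0.780) and SAP130 by 0.31 (adjusted p = 0.528). ING1, a histone-reading subunit, was at 2.58 to 47.1 FPKM in M and 13.3 to 72.6 FPKM in nM (-0.94, limma adjusted p = 0.292), and BRMS1L at 4.10 to 21.6 FPKM in M and 15.5 to 30.9 FPKM in nM (-0.55, adjusted p = 0.321). Of 3 genes tied to the stability of REST protein, TERF2, a telomere-binding protein that protects REST in human cells, differed by -0.32 (limma adjusted p = 0.386), and the kinases DYRK1A and CSNK1E by -0.41 and 0.54 (adjusted p = 0.380 and 0.295). Other cofactors were EHMT1, a histone methyltransferase (0.26, limma adjusted p = 0.473), the deacetylase HDAC4 (0.34, adjusted p = 0.492) and NCOR1, a nuclear receptor corepressor (-0.27, adjusted p = 0.457).

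SMARCE1, a subunit of the SWI/SNF chromatin remodeller, went the other way. Its FPKM in M livers was 23.8, 35.2, 33.6, 29.9, 28.2 and 25.8 at the 6 times in order, against 16.2, 29.7, 15.0, 12.8, 12.5 and 11.6 in nM livers. M was higher at each time, and the states overlapped only through the nM library of ZT5. The log2 difference was 0.87 (standard error 0.24, limma adjusted p = 0.0609), but SMARCE1 too had been picked on this contrast. The call was lost in 10 of 22 alternatives, with adjusted p from 0.0157 to 0.338: with equal totals or upper quartile scaling, and without the M library of ZT5, ZT9 or ZT13 or the nM library of ZT1, ZT9, ZT13, ZT17 or ZT21. SMARCA4 and HDAC3, also on the list, were listed at 0 in all 12 libraries.

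**Figure D5:**
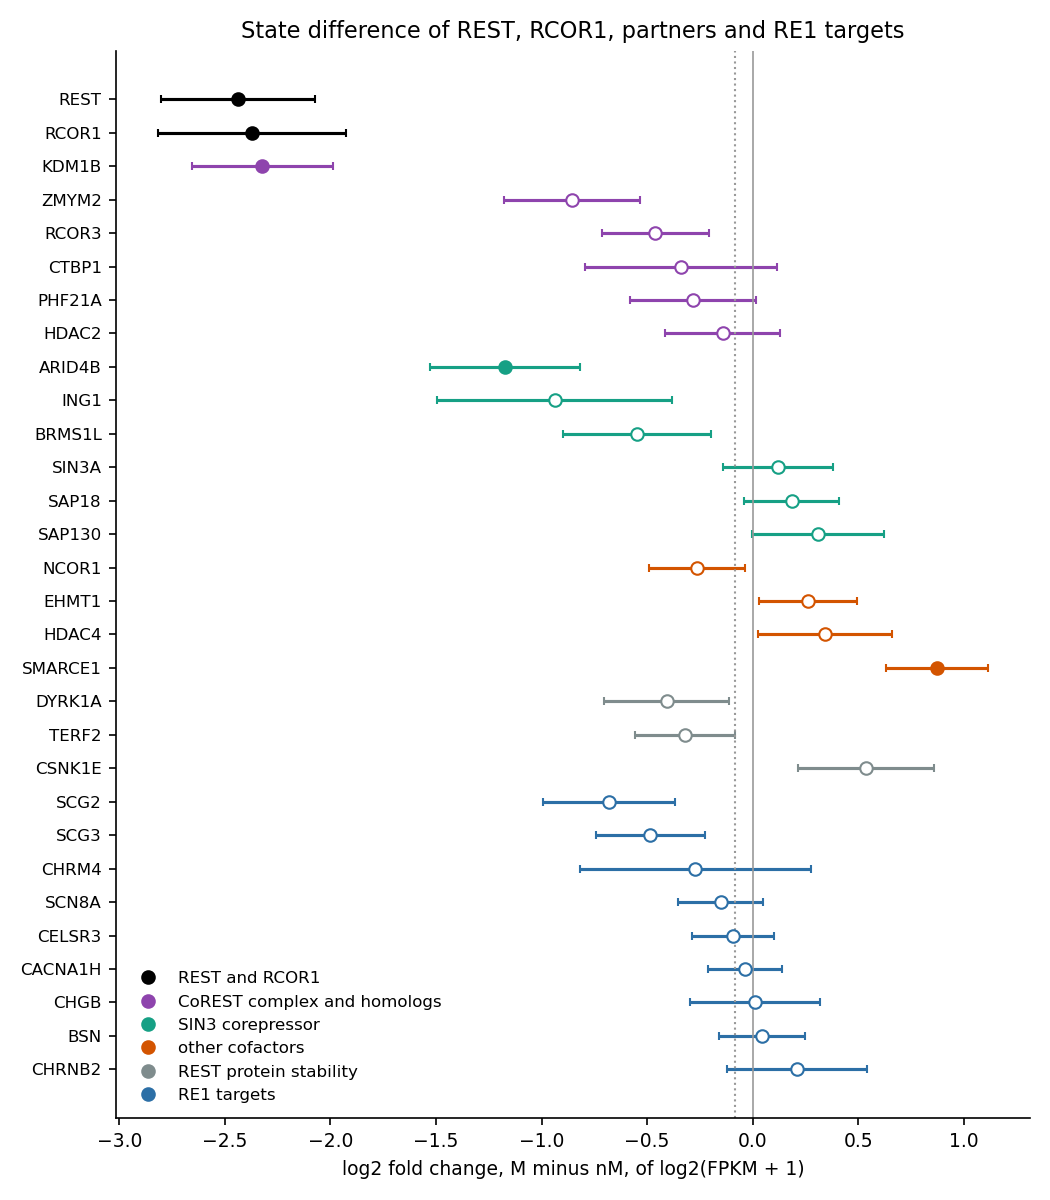
Log2 fold change, M minus nM, of log2(FPKM + 1) with its standard error for REST, RCOR1, partner genes by group and RE1 targets reported here, with filled points for genes that passed the test (and for REST and RCOR1, which were not tested) and the median of all genes dotted. REST (-2.44), RCOR1 (-2.37) and KDM1B (-2.32) lie apart from the other partners, which run from -1.17 to 0.87. These genes were picked on this contrast, as was SMARCE1 (0.87), so their distance from the other partners is a description.

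Apart from CHRM4, no target of REST that passed the filter exceeded 4.93 FPKM in any library. Of 58 RE1 target genes listed, most of them neuronal, 14 had a symbol, and 9 of the 11 not picked on this contrast passed the filter. None of the 9 was called higher or lower in M, and their median difference was -0.09, close to the -0.08 of all genes with a symbol from that table. CHRM4, a muscarinic receptor and the highest of them, was at 0.659 to 11.7 FPKM in M and 1.16 to 13.7 FPKM in nM (-0.27, limma adjusted p = 0.766).

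The secretory granule proteins CHGB, SCG2 and SCG3, classical RE1 targets in mammals, stayed at a few FPKM. SCG3 was at 0.777 to 1.74 FPKM in M and 0.791 to 3.94 FPKM in nM (-0.49, limma adjusted p = 0.248), and it was called only without the nM library of ZT5 (-0.65, adjusted p = 0.0972). SCG2 was at 0.196 to 1.28 FPKM in M and 0.700 to 4.93 FPKM in nM (-0.68, limma adjusted p = 0.194), and CHGB differed by 0.01 (adjusted p = 0.985). SCN8A, a neuronal sodium channel, differed by -0.15 (limma adjusted p = 0.634) and CELSR3, an adhesion receptor of developing axons, by -0.09 (adjusted p = 0.769). BSN, CHRNB2 and CACNA1H had medians of 0.401 FPKM or less in M and 0.421 or less in nM. AP3B2 did not pass the filter, with a highest value of 0.276 FPKM in M and 0.287 FPKM in nM.

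ELAVL4, an RNA-binding protein of neurons, and CACNA1B, a calcium channel, had been picked on this contrast and did not pass the filter. ELAVL4 was 0 in M and up to 0.415 FPKM in nM, and CACNA1B was at 0.0720 to 0.201 FPKM in M and 0 to 0.0597 FPKM in nM.

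Likeness to REST and RCOR1 within the states was also read over the lists. Over 12 libraries, 17 of 20 partners had a positive r to REST (median 0.31, from -0.45 to 0.86), and 7 of 10 targets did (median 0.08, from -0.60 to 0.57), beside 5828 of all 9565 genes (median 0.09). To RCOR1, 15 of 20 partners (median 0.34) and 6 of 10 targets (median 0.06) had a positive r, beside 5366 of all 9565 genes (median 0.15). Without the M library of ZT17 the partners' medians were 0.48 to REST and 0.41 to RCOR1, against 0.16 and 0.12 for all genes, and those of the targets were 0.14 and 0.00. Of the 20 partners 18, and of the 10 targets 9, carry a symbol from the table of genes the study called cyclic in these libraries. They were thus picked on variation with time of day, whereas all 9565 genes were not, so the sets are not alike. Differences between the lists were not tested, and the genes share the same libraries.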

How the data were processed

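Poly-A selected liver RNA of 12 birds was sequenced as single-end reads. According to the submitters' notes and the methods, the authors filtered reads, removed ribosomal reads with Bowtie2 2.0.2, mapped what remained onto the genome of the zebra finch (STAR) and summarised each gene as FPKM (Cufflinks 2.2.1). The deposited FPKM table held 18284 genes. The deposited log2 values of 11246 genes equalled log2(FPKM + 1) within 1e-06 in all 134952 cases, so nothing further had been scaled between libraries. FPKM holds no counts, so no counting intervals are given, and the read totals listed with the study entered no fit here.

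Genes above 0.1 FPKM in at least 10 libraries (9566) were compared on log2(FPKM + 1) with limma 3.58.1 in R 4.3.3, with the 6 times as replicates of a state, Benjamini-Hochberg adjustment, a false discovery rate of 0.1 and an absolute log2 fold change of 0.1. Since single birds at different times stood as replicates, p-values measure the spread between these libraries. The same fit with 24-h cosine and sine terms tested rhythm. Correlations were tested by exact permutation over the 720 pairings of 6 libraries, or the 120 pairings of 5, with scipy 1.17.1. Code was tested on simulated data.

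Symbols came from 2 supplementary tables, one of genes the study called different between states and one of genes it called cyclic, which name 4095 of the genes compared. Genes named only by the first had been picked on this contrast and were counted apart. The members and the gene lists were chosen with earlier results of these data known. Set to be named were REST, RCOR1, every called list gene and the 6 most abundant others of each list. For likeness (Pearson's r of deviations from state means) they were the 8 highest and 4 lowest. Other genes of a list were added for completeness after their values were seen. Some list genes, a called one among them, are counted but not reported by name here. Alternatives were other pseudocounts, filters, scalings and tests, time as a block, and leaving out each library.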

Additional observations from a re-analysis of the deposited data

Results flagged for a closer look

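In 36 groups of 6 libraries (18 genes in 2 states), 6 had a lowest or highest library far from the rest, by a rule meant to flag about 1 in 20. The groups share the same 12 libraries and are not independent, so the count of 6 cannot be set against that rate. At ZT17 in M, CTBP1 had 5.61 FPKM, against 46.8 to 56.3 FPKM in the other M libraries. ING1 was at 2.58 FPKM there, against 21.98 to 47.1, and BRMS1L at 4.10 FPKM, against 13.4 to 21.6. This is the library in which RCOR1 was listed at 0. In the nM library of ZT5, in which REST and RCOR1 were lowest among nM livers, SMARCE1 was at 29.7 FPKM, against 11.6 to 16.2 FPKM in the other nM libraries, and HDAC2 at 25.2 FPKM, against 53.7 to 78.9. CHGB was at 4.08 FPKM in the nM library of ZT1, against 0.294 to 1.10 FPKM in the others. REST and RCOR1 themselves had no library flagged by this rule in either state. Both were nevertheless well above the rest in the nM library of ZT1. REST was at 46.4 FPKM there, against 12.97 to 26.3 in the other nM libraries, and RCOR1 at 27.9, against 10.5 to 16.8. Without that library their r within nM was 0.85 (n = 5, exact permutation over 120 pairings, adjusted p = 0.167).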

How the results depend on the processing

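FPKM gives no counting error, 1 bird stood for each state and time, and low genes are compressed by the pseudocount. REST differed by -2.81 to -2.22 between the states over 22 alternatives and RCOR1 by -3.77 (pseudocount 0.01) to -2.02 over 21, since requiring values above 0 in every library removes RCOR1. Leaving out single libraries gave -2.60 to -2.22 for REST and -2.64 to -2.02 for RCOR1. The count of genes called between the states was 892, and it was 421 with a pseudocount of 0.01 and 295 with equal totals, and 200 (without M ZT5) to 1979 (without M ZT1) when 1 library was left out. Of partner genes not picked on the state contrast, 1 was called. That count was 0 with a pseudocount of 0.01, 0 with equal totals, 0 with ordinary regression and 0 to 3 without single libraries. Of RE1 targets not picked on it, 0 were called, against 0 to 1 without single libraries. KDM1B and SMARCE1, which had been picked on it, are not in these counts. Genes with a shared 24-h cosine numbered 5, against 3 (pseudocount 0.01), 2 (no filter), 3 (equal totals), 10 (upper quartile scaling), 1 (ordinary regression) and 2 to 37 without single libraries. REST and RCOR1 stayed uncalled for rhythm under every alternative run, with adjusted p from 0.781 to 0.998 and from 0.715 to 0.998. Their r within M was -0.032 with a pseudocount of 0.01, 0.88 with equal totals and 0.04 to 0.89 without single libraries. Their r within nM was 0.91 with upper quartile scaling (adjusted p = 0.1, no longer called) and 0.85 to 0.99 without single libraries. Of genes that were not called, CTBP1 turned direction without M ZT17 (range without single libraries -0.47 to 0.15), CHRM4 without M ZT9 (-0.58 to 0.059), and CHGB without M ZT1, M ZT17, nM ZT5, nM ZT9 or nM ZT21 (-0.13 to 0.26), with equal totals (-0.040) and with upper quartile scaling (-0.0047). The causes were not tested.

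The times of day paired the libraries only in part. The correlation of deviations between M and nM libraries of the same time was 0.0257 to 0.475, above 0.1 at 3 of 6 times. It was 0.475 at ZT5 and 0.300 at ZT21, against at most 0.0335 and 0.0884 with nM libraries of another time. The ZT5 libraries were also the most deeply sequenced of each state, so time and depth cannot be told apart there. For the M libraries of ZT1, ZT9, ZT13 and ZT17, an nM library of another time gave a higher value. With time of day as a replicate block 928 genes were called (317 higher and 611 lower in M). Of the partner genes and RE1 targets not picked on the state contrast, 1 and 0 were called.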
